A study of Homo sapiens with 8 samples.

Results

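The 10 genes described here encode subunits of AMP-activated protein kinase (AMPK) and the kinases and partners that switch it on. They were chosen by symbol, and all 10 were found among the 57978 genes listed in both deposited tables. The catalytic subunits are encoded by PRKAA1 and PRKAA2, the scaffold subunits by PRKAB1 and PRKAB2, and the nucleotide-binding subunits by PRKAG1 and PRKAG2. STK11 encodes the upstream kinase LKB1, STRADA and CAB39 encode its pseudokinase and scaffold partners STRAD alpha and MO25 alpha, and CAMKK2 encodes the calcium-dependent kinase CaMKK2.

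AMPK is a trimer of 1 catalytic, 1 scaffold and 1 nucleotide-binding subunit. When ATP is used faster than it is made, AMP and ADP bind the nucleotide-binding subunit, and LKB1 phosphorylates a threonine in the activation loop of the catalytic subunit. CaMKK2 phosphorylates the same threonine when calcium rises. Active AMPK lowers the synthesis of fatty acids, sterols and protein and raises autophagy and glucose uptake, and loss of glucose is a textbook setting in which it becomes active.

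The libraries came from HEK293T, an embryonic kidney line with SV40 large T antigen, in which the translation initiation factor subunit eIF3d carried an HA tag and a site for TEV protease. For 48 h the cells had complete DMEM and 10% fetal bovine serum, or glucose-free DMEM and 10% dialyzed serum, so that the serum differed along with the glucose. Crosslinking used ultraviolet light of 254 nm, anti-HA beads captured the tagged eIF3d, TEV protease released it, and polyadenylated RNA was sequenced from this immunoprecipitate (IP) and from the input. The 4 groups were complete input, complete IP, glucose-free input and glucose-free IP, each with 2 libraries, and all 4 carried the tagged eIF3d. The labels do not say that replicates were separate cultures, so every p-value rests on library spread alone, which may be technical. An IP from cells without the tag was not analysed here, so RNA held by the beads alone has no background value.

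Libraries held 8656921 to 43400905 reads recovered from the deposited values. Nuclear protein-coding genes took 27.4% to 29.1% of reads in the inputs and 54.0% to 65.2% in the IPs, while mitochondrial rRNA took 26.8% to 50.7% in the inputs and 0.401% to 10.7% in the IPs. Complete IP 2 had 10.7% mitochondrial rRNA against 1.27% in complete IP 1. RPKM, the read count per exon length and library size, was higher in the IP than in the input for most genes: over the 10100 genes with a mean of at least 1 RPKM, the median log2 change was 1.11 in complete and 1.58 in glucose-free medium, and −0.33 between the inputs. Each library was for that reason scaled to 1 common median over these genes before testing, and the changes given here are relative to that median. All 8 genes known from HEK293-derived lines reached 1 RPKM in some library, and NEFL, NEFM, VIM and KRT18 did so in all 8. Of 20 markers of other cell types, 4 reached 1 RPKM in some library. The summed level of the 20 was 7.43 to 12.4 RPKM in the inputs and 7.64 to 11.8 in the IPs of complete medium, and 2.75 to 2.92 and 3.40 to 5.67 without glucose, and its part in the results was not tested.

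Of the 10 genes, 6 reached a mean of 1 RPKM and entered the fit: PRKAB1, PRKAG1, PRKAG2, STK11, CAB39 and CAMKK2. PRKAA1 (mean 0.380 RPKM), PRKAA2 (0.597), PRKAB2 (0.857) and STRADA (0.197) lay below it. Those 4 were fitted only with no filter on level and on recovered reads. The fit on reads used limma voom over the 16478 genes with at least 50 reads in all. It was added after the 4 were seen to miss the filter. After scaling, input and IP did not overlap for 8 of the 10 genes in complete and 9 in glucose-free medium, and the inputs did not overlap for 7, where 74.0%, 90.5% and 75.0% of all tested genes had groups that did not overlap. Such a gap is therefore common in these libraries and shows little for any 1 gene.

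The catalytic subunit genes were among the lowest of the 10. PRKAA1 (ENSG00000132356) lies on the minus strand of chr5:40759379-40798374 (GRCh38, GENCODE 29), and PRKAA2 (ENSG00000162409) on the plus strand of chr1:56645322-56715335. Their coding sequences were 72.9% identical, with a longest identical run of 24 bases, and they shared no stretch of 50 bases, so an exact match of that length points to 1 of them. The codons of the activation loop, which LKB1 and CaMKK2 act on, are shown because they are the place where the upstream kinases meet both catalytic subunits. They run from the DFG to the APE motif of the encoded protein over 81 bases, in exons 5 and 6 of PRKAA1 (chr5:40771719-40771725 and chr5:40769430-40769503) and exons 4 and 5 of PRKAA2 (chr1:56692496-56692502 and chr1:56693765-56693838). Capitals mark the 16 bases that differ between the paralogs.

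PRKAA1: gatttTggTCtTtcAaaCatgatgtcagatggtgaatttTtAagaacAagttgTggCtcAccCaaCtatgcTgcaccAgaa
PRKAA2: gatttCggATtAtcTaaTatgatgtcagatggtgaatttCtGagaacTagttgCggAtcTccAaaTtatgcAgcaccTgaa

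PRKAA1 measured 0.135 and 0.203 RPKM in the complete inputs, 0.446 and 0.352 in the IPs of that medium, 0.215 and 0.277 in the glucose-free inputs, and 0.704 and 0.709 in the glucose-free IPs. These rest on 26 to 79 reads per library. After scaling to the common median, the glucose-free inputs were the highest, at 0.632 and 0.762, and did not overlap the complete inputs at 0.268 and 0.284 or the glucose-free IPs at 0.307 and 0.267. In bulk RNA, fewer cells with a transcript and less of it per cell cannot be told apart. In the voom fit PRKAA1 rose in the glucose-free against the complete input by 1.43 ± 0.38 (log2, SE; adjusted p = 0.0174). In glucose-free medium it was lower in the IP than in the input, at −1.35 ± 0.35 (adjusted p = 0.00793), whereas in complete medium the value was −0.39 ± 0.38 (adjusted p = 0.411). The difference between those values was −0.97 (adjusted p = 0.309). With limma on log2(scaled RPKM + 1) and no filter, the rise between inputs was 0.41 (adjusted p = 0.0578) and missed the threshold. In that fit the glucose-free IP was lower than its input by −0.40 (adjusted p = 0.0372).

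PRKAA2 measured 0.330 and 0.411 RPKM in the complete inputs, 0.813 and 1.23 in the IPs of that medium, 0.204 and 0.177 in the glucose-free inputs, and 0.889 and 0.720 in the glucose-free IPs. After scaling, the complete input and IP overlapped, as did the inputs of the media. None of its changes passed in the voom fit: IP against input was −0.22 in complete medium (adjusted p = 0.623) and −0.82 ± 0.38 in glucose-free medium (adjusted p = 0.103), and the inputs differed by −0.10 (adjusted p = 0.871). PRKAA1 made up 28.9% and 33.1% of the catalytic subunit RPKM in the complete inputs and 51.3% and 61.0% in the glucose-free inputs, groups that did not overlap. In the IPs its share was 35.4% and 22.3% in complete medium and 44.2% and 49.6% in glucose-free medium. A share within a library does not depend on how libraries are scaled, but the smallest two-sided p of an exact permutation test on groups of 2 is 0.333, so that test cannot pass for the shares.

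**Figure D1:**
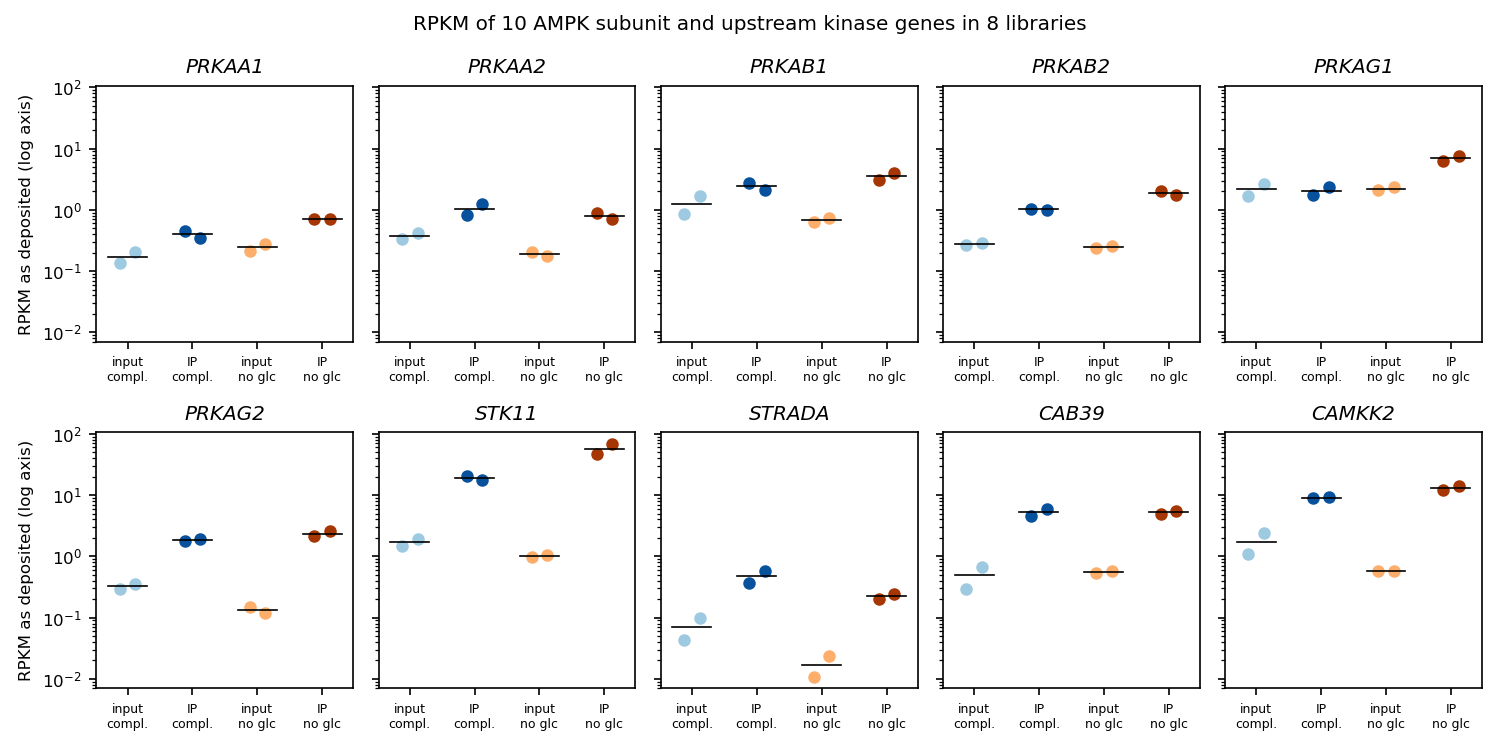
RPKM as deposited (log axis) of each of the 10 genes in the 8 libraries; points are libraries, black lines are means of 2, and groups are the input and IP in complete medium and without glucose (no glc). STK11 reached 46.5 and 67.9 RPKM in the glucose-free IPs, while STRADA stayed under 0.6 RPKM everywhere.

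The scaffold subunit genes gave no change between input and IP that passed in the fit on scaled RPKM or in voom. PRKAB1 (ENSG00000111725, plus strand of chr12:119667753-119681630) measured 0.843 and 1.66 RPKM in the complete inputs, 2.76 and 2.13 in the IPs of that medium, 0.626 and 0.749 in the glucose-free inputs, and 3.07 and 3.95 in the glucose-free IPs. After scaling, the IPs (1.14 to 1.49 over both media) lay under the inputs (1.68 to 2.32), without overlap. Neither change passed: −0.40 ± 0.18 in complete medium (log2, SE; limma adjusted p = 0.081) and −0.29 ± 0.18 in glucose-free medium (adjusted p = 0.194). Both passed as lower, at −0.95 (adjusted p = 0.000726) and −0.72 (adjusted p = 0.00294), once smooth trends of each library's log2 level with exon length and GC content were taken out. In that setting the median changes over all tested genes were −0.17 and −0.27. Both also passed with centring after the log (−0.58, adjusted p = 0.0199, and −0.51, adjusted p = 0.0347). The complete value also passed with quantile normalization (−0.46, adjusted p = 0.0457) and without complete input 1 (−0.55, adjusted p = 0.0275), and the glucose-free value with only the libraries compared (adjusted p = 0.0292). On RPKM as deposited both turned to higher, at 0.63 (adjusted p = 0.0356) and 1.41 (adjusted p = 0.000205). The inputs differed by −0.02 (adjusted p = 0.944).

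PRKAB2 (ENSG00000131791, minus strand of chr1:147155106-147172550) encodes the other scaffold isoform. It measured 0.266 and 0.291 RPKM in the complete inputs, 1.04 and 0.984 in the IPs of that medium, 0.237 and 0.253 in the glucose-free inputs, and 2.03 and 1.75 in the glucose-free IPs. After scaling, input and IP overlapped in each medium. In the voom fit the changes were 0.20 (adjusted p = 0.648) and 0.05 (adjusted p = 0.92), and the inputs differed by 0.67 ± 0.38 (adjusted p = 0.203). PRKAB1 took 76.0% and 85.1% of scaffold RPKM in the complete inputs and 60.2% and 69.3% in the glucose-free IPs, with the other groups between 68.4% and 74.7%.

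In the fit on scaled RPKM and in voom, the nucleotide-binding subunits went in opposite directions from input to IP. Other settings, given below, changed the sign for PRKAG1 or PRKAG2. PRKAG1 (ENSG00000181929, minus strand of chr12:49002274-49018825), the most abundant subunit RNA in every input, measured 1.67 and 2.67 RPKM in the complete inputs, 1.74 and 2.39 in the IPs of that medium, 2.12 and 2.32 in the glucose-free inputs, and 6.26 and 7.57 in the glucose-free IPs. On the scaled level the complete inputs were at 3.33 and 3.73 and the complete IPs at 0.874 and 1.28, and the glucose-free inputs were at 6.22 and 6.36 and the IPs at 2.73 and 2.85, with no overlap in either medium. PRKAG1 was lower in the IP by −1.13 ± 0.19 in complete medium (limma adjusted p = 0.00111) and by −0.94 ± 0.19 in glucose-free medium (adjusted p = 0.00272). Those values lay above 21.2% and 26.5% of the tested genes. On RPKM as deposited, without scaling, the complete value was −0.04 (adjusted p = 0.903) and the glucose-free value turned to 1.30 (adjusted p = 0.000656).

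PRKAG1 was also the 1 gene of the 6 that passed between the inputs, higher without glucose by 0.69 ± 0.19 (adjusted p = 0.0257). There 34.0% of all tested genes passed, 18.4% higher and 15.6% lower. The call was lost without glucose-free input 1 (0.70, adjusted p = 0.142) or 2 (0.67, adjusted p = 0.164), and without either glucose-free IP (adjusted p = 0.0658 and 0.0656). It was also lost with quantile normalization, with centring after the log, with only the libraries compared (adjusted p = 0.0527), and on RPKM as deposited, where it was 0.04 (adjusted p = 0.926). The exons of PRKAG1 overlap those of DDN-AS1 on the other strand over 532 bases, 12.7% of its exon length, and DDN-AS1 reached at most 0.155 RPKM.

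PRKAG2 (ENSG00000106617, minus strand of chr7:151556111-151877125) measured 0.290 and 0.358 RPKM in the complete inputs, 1.78 and 1.94 in the IPs of that medium, 0.148 and 0.120 in the glucose-free inputs, and 2.14 and 2.56 in the glucose-free IPs. The IPs lay above the inputs in both media, also after scaling. Its change was 0.35 ± 0.13 in complete medium (limma adjusted p = 0.0385) and 0.50 ± 0.13 in glucose-free medium (adjusted p = 0.0086). These are small values at low levels, and the pseudocount of 1 understates them: with 0.1 the complete value was 0.74 (adjusted p = 0.0519). The complete call was lost without complete input 1 (adjusted p = 0.0572) or 2 (adjusted p = 0.0918), without any 1 glucose-free library (adjusted p = 0.0726 to 0.0869), with no filter (adjusted p = 0.0744) and with only the libraries compared (adjusted p = 0.178). The glucose-free call was lost without glucose-free IP 2 (adjusted p = 0.0587) or input 2 (adjusted p = 0.0941), and under centring after the log the values turned to −0.10 and −0.36. Quantile normalization lost both calls, at 0.26 (adjusted p = 0.111) and 0.18 (adjusted p = 0.273). With the length and GC trends out, the values were −0.28 and 0.06 and neither passed. On the opposite strand PRKAG2-AS1 overlaps 84 bases of PRKAG2 exons, 1.25% of their length, and measured 0.495 to 2.96 RPKM in the inputs and 3.77 to 20.4 in the IPs; its part in the PRKAG2 values was not tested.

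PRKAG1 made up 85.2% and 88.2% of the nucleotide-binding subunit RPKM in the inputs of complete medium but 49.4% and 55.2% in its IPs. Without glucose the shares were 93.5% and 95.1% in the inputs and 74.5% and 74.7% in the IPs. Inputs and IPs did not overlap in either medium, with the exact permutation test at its smallest p of 0.333 in each. PRKAG3, the muscle isoform, reached at most 0.0141 RPKM. Across the 3 classes, the PRKAG1 share differed most between IP and input, by −34.3 points in complete and −19.7 points in glucose-free medium, against −10.1 and −8.9 points for PRKAB1 and −2.16 and −9.23 points for PRKAA1.

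**Figure D2:**
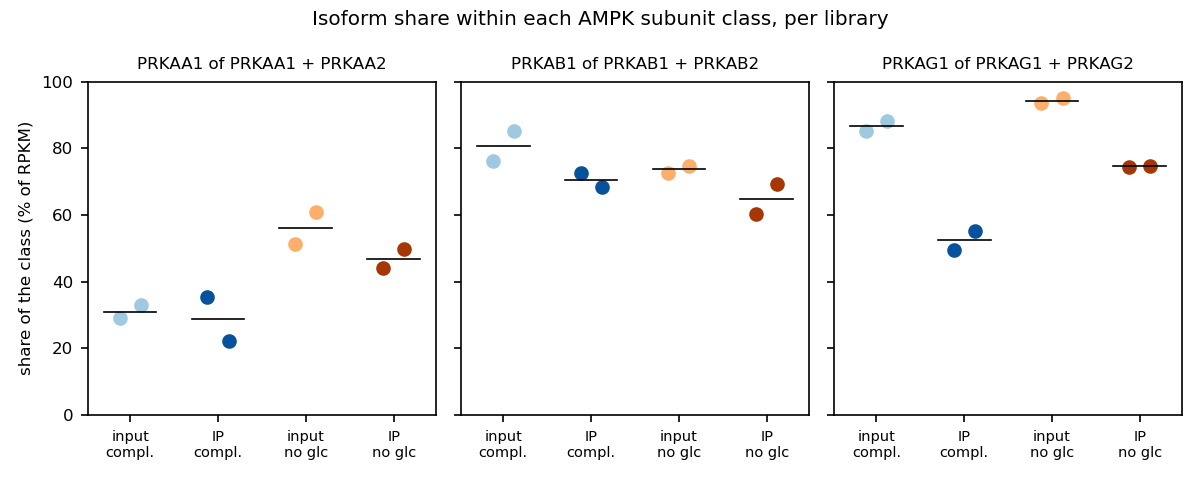
Share of PRKAA1, PRKAB1 and PRKAG1 in the summed RPKM of their subunit class (%), by library; points are libraries and black lines are means of 2. PRKAG1 was at 85.2% and 88.2% in the complete inputs against 49.4% and 55.2% in the IPs, and PRKAA1 was at 51.3% and 61.0% in the glucose-free inputs against 28.9% and 33.1% in the complete ones.

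Among the upstream genes, STK11 stood out. STK11 (ENSG00000118046, plus strand of chr19:1177558-1228435), which encodes LKB1, measured 1.46 and 1.94 RPKM in the complete inputs, 20.7 and 17.7 in the IPs of that medium, 0.957 and 1.04 in the glucose-free inputs, and 46.5 and 67.9 in the glucose-free IPs. The glucose-free IPs were the highest, the complete IPs next, and no IP overlapped an input. On the scaled level the inputs lay at 2.72 to 2.92 in all 4 libraries, the complete IPs at 10.4 and 9.49, and the glucose-free IPs at 20.3 and 25.6. The change from input to IP was 1.52 ± 0.22 in complete medium (log2, SE; limma adjusted p = 0.000452), above 94.3% of tested genes, and 2.64 ± 0.22 in glucose-free medium (adjusted p = 4.35e-05), above 99.0% of them.

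STK11 has the most GC-rich longest transcript of the 10, at 65.8% against 35.2% to 54.3%. With length and GC trends taken out, its change was 0.58 (adjusted p = 0.0452) in complete and 1.07 (adjusted p = 0.00306) in glucose-free medium, and the inputs differed by 0.80 (adjusted p = 0.0231) where the fit without that step gave 0.00 (adjusted p = 0.989). The larger glucose-free than complete change was 1.12 ± 0.31 on the log2 scale, with a 95% interval of 0.41 to 1.82. It did not pass after adjustment over all genes (limma adjusted p = 0.0724). It passed without complete input 2 (1.15, adjusted p = 0.0437) or complete IP 1 (1.18, adjusted p = 0.0321). It also passed with centring after the log (1.23, adjusted p = 0.0343), quantile normalization (1.36, adjusted p = 0.0311) and on RPKM as deposited (1.94, adjusted p = 0.0103), whereas with the length and GC trends out it was 0.49 (adjusted p = 0.339). On the opposite strand CBARP overlaps 149 bases of STK11 exons, 1.72% of their length, and measured 0.178 to 5.25 RPKM.

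CAB39 (ENSG00000135932, plus strand of chr2:230712845-230821075), the scaffold that holds LKB1 and STRAD alpha in the active state, measured 0.294 and 0.680 RPKM in the complete inputs, 4.53 and 5.97 in the IPs of that medium, 0.527 and 0.567 in the glucose-free inputs, and 4.96 and 5.60 in the glucose-free IPs. On the scaled level the complete inputs were lowest at 0.587 and 0.951, the glucose-free inputs followed at 1.55 and 1.56, and the IPs lay at 2.11 to 3.21. CAB39 was higher in the complete IP by 1.08 ± 0.19 (limma adjusted p = 0.0014), and in glucose-free medium the change of 0.30 ± 0.19 did not pass (adjusted p = 0.211), though it did with only the libraries compared (adjusted p = 0.0184) and on RPKM as deposited (2.02, adjusted p = 1.22e-05). The difference of these changes was −0.78 ± 0.27, with a 95% interval of −1.40 to −0.16, and did not pass (adjusted p = 0.119). Without complete IP 1 it passed at −0.96 (adjusted p = 0.0271). The inputs differed by 0.54 ± 0.19 (adjusted p = 0.0586), which passed in the voom fit over genes with at least 50 reads at 1.16 ± 0.36 (adjusted p = 0.0349). It also passed with a pseudocount of 0.1 (adjusted p = 0.0357), with only the libraries compared (adjusted p = 0.0439), without complete input 2 (0.69, adjusted p = 0.0435) or without either complete IP (adjusted p = 0.0243 and 0.0232).

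CAMKK2 (ENSG00000110931, minus strand of chr12:121237691-121298308) measured 1.07 and 2.36 RPKM in the complete inputs, 8.79 and 9.25 in the IPs of that medium, 0.581 and 0.585 in the glucose-free inputs, and 11.9 and 14.3 in the glucose-free IPs. Every IP lay above every input, also after scaling. The change was 0.63 ± 0.21 in complete medium (limma adjusted p = 0.0306) and 1.24 ± 0.21 in glucose-free medium (adjusted p = 0.00107). Their difference of 0.61 ± 0.30 did not pass (adjusted p = 0.227). With the length and GC trends out, the glucose-free change fell to 0.50 and still passed (limma adjusted p = 0.0222). The complete call was lost without complete input 1 (0.40, adjusted p = 0.0759) or complete IP 2 (0.56, adjusted p = 0.0858), without any 1 glucose-free library (adjusted p = 0.0631 to 0.0716), with no filter (adjusted p = 0.0672) or only the libraries compared (adjusted p = 0.177), and with the length and GC trends out (0.02, adjusted p = 0.902). The inputs differed by −0.47 ± 0.21 (adjusted p = 0.117), and by −0.70 (adjusted p = 0.0184) without complete input 1.

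STRADA (ENSG00000266173, minus strand of chr17:63682336-63741986) was the lowest of the 10, with 4 to 135 reads per library. It measured 0.0436 and 0.0992 RPKM in the complete inputs, 0.363 and 0.586 in the IPs of that medium, 0.0108 and 0.0233 in the glucose-free inputs, and 0.202 and 0.245 in the glucose-free IPs. Within each medium input and IP did not overlap after scaling, but the voom changes of 1.14 ± 0.47 in complete medium (adjusted p = 0.0604) and 0.81 ± 0.62 in glucose-free medium (adjusted p = 0.315) did not pass. Its level is uncertain. Of the 50-base stretches of its transcript with the longest coding sequence, 85.0% also occur in the gene model AC046185.1 on the same strand. That gene model overlaps 1970 bases of STRADA exons, 18.1% of their length, and is listed at 0 in all 8 libraries. STRADB, the paralog, measured 0.237 to 0.682 RPKM in the inputs and 0.452 to 3.38 in the IPs.

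**Figure D3:**
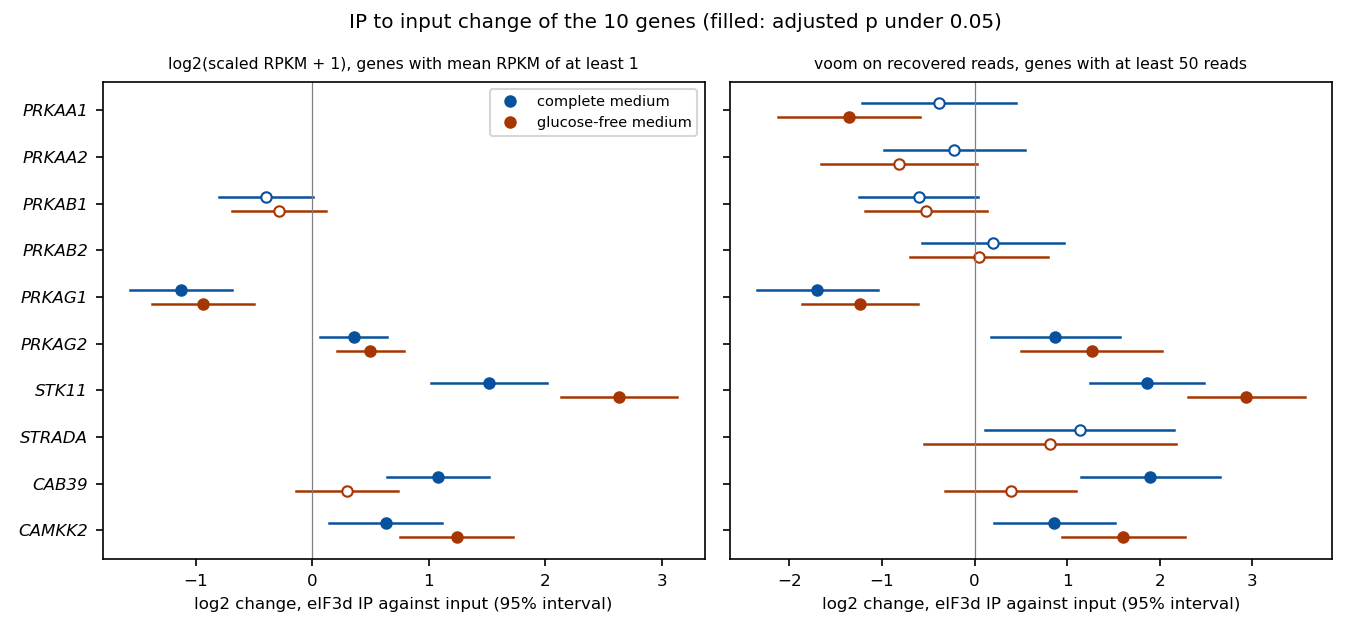
Log2 change from input to eIF3d IP with its 95% interval for each gene, in complete (blue) and glucose-free medium (brown), from limma on log2(scaled RPKM + 1) at left and limma voom on recovered reads at right; filled points have an adjusted p under 0.05. Genes under a mean of 1 RPKM appear only at right. In the left panel STK11 lies farthest to the right at 1.52 and 2.64; in the right panel CAB39 at 1.90 lies beside STK11 at 1.86 in complete medium.

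Within the LKB1 complex, the RPKM ratio of STK11 to CAB39 was 4.98 and 2.86 in the complete inputs, 4.58 and 2.96 in the IPs of that medium, 1.82 and 1.83 in the glucose-free inputs, and 9.39 and 12.1 in the glucose-free IPs. Input and IP overlapped in complete medium and did not overlap without glucose. STK11 to PRKAG1 was 0.878 and 0.728 in the inputs of complete medium, 11.9 and 7.39 in its IPs, and 0.452 and 0.448 against 7.43 and 8.97 without glucose. Input and IP did not overlap there in either medium. That pair joins the tested member with the highest IP change to the one with the lowest, so its gap restates those changes. No share over other gene pairs is given here. STK11 to STRADA was 33.6 and 19.6 in the complete inputs and 57.1 and 30.1 in the IPs of that medium, which overlapped. Without glucose it was 88.3 and 44.5 in the inputs and 230.2 and 277.2 in the IPs, with the STRADA level uncertain. These ratios do not depend on library scaling.

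Of the 6 tested genes, 5 passed in complete medium, 4 higher in the IP (STK11, CAB39, CAMKK2 and PRKAG2) and PRKAG1 lower. Among all 10100 tested genes 59.9% passed, 30.0% higher and 29.9% lower. Without glucose 4 of 6 passed, with STK11, CAMKK2 and PRKAG2 higher and PRKAG1 lower, where 59.8% of all genes passed, 27.6% higher and 32.2% lower. With a background that high, the counts show nothing particular to these genes in either medium. No gene of the 6 passed for the difference between media, where 5.03% of all genes did, 1.95% higher and 3.08% lower. STK11 and CAB39, 2 of the 6, had an unadjusted p under 0.05 in that limma fit, as did 26.9% of all tested genes. Voom over genes with at least 50 reads also called 0 of 10 for that difference, with 0.492% of all genes called, 0.231% higher and 0.261% lower. In complete medium that fit called 5 of 10 (4 higher and 1 lower, against 28.1% and 22.2% of all genes and 50.3% in either direction). In glucose-free medium it called 3 higher and 2 lower, against 21.6% and 24.5% of all genes and 46.0% together. Between inputs it called 3 higher and none lower, against 15.4% and 12.2% of all genes and 27.7% together; the 3 were PRKAA1, PRKAG1 and CAB39. With no filter on level, 3, 5, 0 and 1 of the 10 passed in the 4 comparisons, against 16.3%, 15.5%, 0.305% and 6.99% of 40690 genes.

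**Figure D4:**
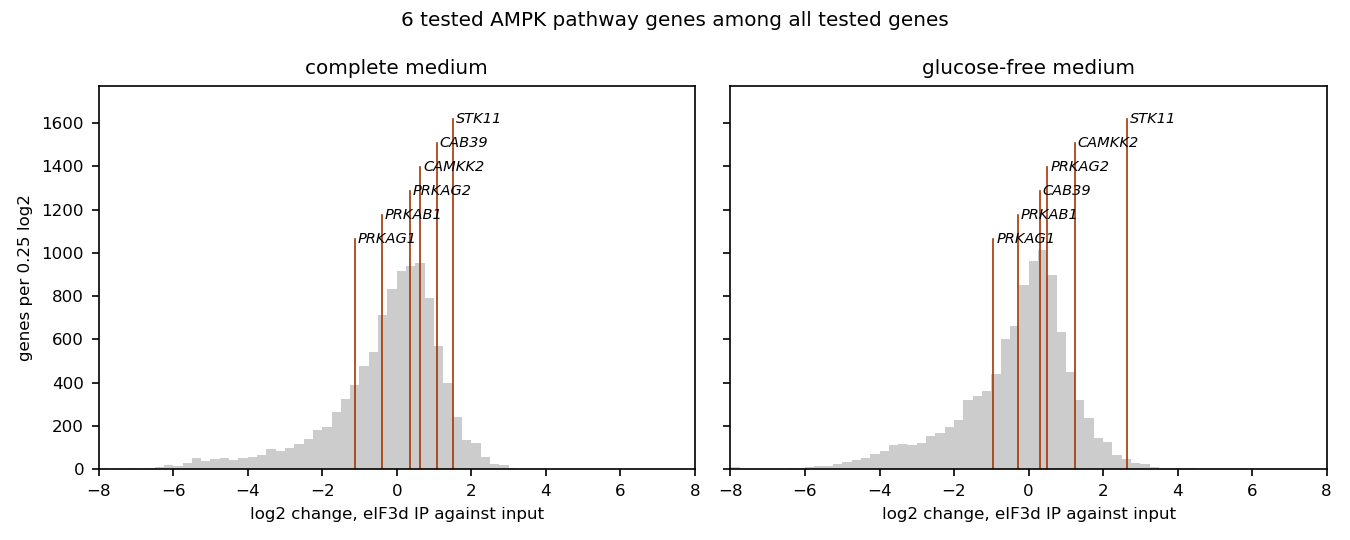
Histogram of the log2 change from input to IP over all 10100 tested genes (grey, genes per 0.25 log2) with the 6 tested AMPK pathway genes as lines, in complete and glucose-free medium. STK11 lies above 94.3% and 99.0% of genes, and PRKAG1 lies above 21.2% and 26.5%.

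Other genes of the pathway were counted from 4 lists, to be read against the shares of all tested genes: 30.0% higher and 29.9% lower in the complete IP, 27.6% and 32.2% in the glucose-free IP, and 18.4% and 15.6% between inputs. The medians over all tested genes were 0.03, −0.02 and −0.04. On RPKM as deposited most listed genes were higher in the IP, as were most of all tested genes. Of 12 AMPK-related kinases that LKB1 also activates, 10 were tested: 8 were higher in the complete IP and none lower (median 0.97), and 7 were higher in the glucose-free IP (median 0.76). MARK2, a microtubule-affinity kinase, was higher by 1.36 ± 0.33 (limma adjusted p = 0.00706) and 2.04 ± 0.33 (adjusted p = 0.000817). NUAK1 was higher by 1.30 ± 0.16 in complete medium and BRSK1, a neuronal polarity kinase, by 1.49 ± 0.20 in glucose-free medium. Between inputs, 5 of the 10 were lower without glucose and none higher (median −0.53), with MARK2 at −1.16 ± 0.33 and BRSK2 at −0.77 ± 0.23. The 2 complete inputs of MARK2 lay far apart, with a mean of 3.49 RPKM and an SD of 2.78, against 2.05 and 0.588 for BRSK2. That count of 5 was 0 with centring after the log or quantile normalization and 1 on RPKM as deposited or with the length and GC trends out. For the glucose-free IP, centring after the log gave 4 higher and 2 lower. With the length and GC trends out, 6 were higher and 1 lower in complete medium, and 2 and 1 in glucose-free medium.

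Of 24 AMPK substrates and effectors, 21 were tested, with 11 higher and 1 lower in the complete IP (median 0.41) and 10 higher and 1 lower in that without glucose (median 0.62). RPTOR, the mTORC1 subunit that AMPK phosphorylates, rose by 1.93 ± 0.28 in the complete IP, and ACACA, acetyl-CoA carboxylase, by 1.74 ± 0.22. ULK1, the autophagy kinase, was higher by 2.34 ± 0.26 in the glucose-free IP, while MFF, a mitochondrial fission receptor, was lower at −1.68 ± 0.24. Between inputs 1 was higher and 7 lower without glucose (median −0.54), led by ATG9A at −1.54 ± 0.25 and RPTOR at −1.36 ± 0.28. The complete inputs of RPTOR lay far apart, with a mean of 2.53 RPKM and an SD of 1.77, against 2.64 and 0.945 for ATG9A. The count of 7 lower was 2 with centring after the log, 3 with quantile normalization and 4 on RPKM as deposited, and with the length and GC trends out 3 were higher and 3 lower. With the length and GC trends out, the IP counts were 4 higher and 7 lower in complete and 2 higher and 7 lower in glucose-free medium. All 10100 tested genes leaned lower there too, with 2374 higher and 3643 lower in complete and 2060 and 3918 in glucose-free medium. The list medians were −0.11 and −0.06, against −0.17 and −0.27 over all tested genes.

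Of 17 other inputs and regulators, 12 were tested: 5 higher and 4 lower in the complete IP (median 0.08), 3 and 5 in the glucose-free IP (median 0.19), and 3 and 1 between inputs (median 0.01). With the length and GC trends out, calls in this list leaned lower, and so did calls over all 10100 tested genes. For complete medium the list had 2 calls up and 7 down, where all tested genes had 2374 up and 3643 down. For glucose-free medium it had 0 up and 6 down, where all tested genes had 2060 and 3918. The list medians in that setting were −0.47 and −0.43, against −0.17 and −0.27 over all tested genes. ALDOA, the glycolytic aldolase, was lower by −1.96 ± 0.21 in the complete IP and by −1.96 ± 0.21 in the glucose-free input. LAMTOR1, a lysosomal anchor, was at −1.87 ± 0.25 in the complete IP, and ADK, which phosphorylates adenosine, was at −1.78 ± 0.24 in the glucose-free IP. PPP2CA, a phosphatase subunit, was higher in the glucose-free input by 1.12 ± 0.17. Of 6 paralogs and other upstream kinases, 4 were tested: none passed in the complete IP, CAMKK1 was higher in the glucose-free IP by 0.61 ± 0.17, and STRADB and MAP3K7 were higher in the glucose-free input by 0.96 ± 0.18 and 0.62 ± 0.18. In the glucose-free IP, 0 of these 4 were higher and 1 lower with centring after the log or quantile normalization, and 0 and 2 with the length and GC trends out, so the CAMKK1 call was lost there. Between inputs 0 passed with centring after the log or on RPKM as deposited. No gene of the 4 lists passed for the difference between media. Centring after the log called 3 AMPK-related kinases, 2 substrates and 1 other regulator there, and quantile normalization 1, 4 and 1, all lower. On RPKM as deposited the direction turned, with 2 higher and 1 lower, 3 and 1, and 2 and 0 in those lists. Over all 10100 tested genes, centring called 508 higher and 983 lower for that difference, and quantile normalization 759 and 804. RPKM as deposited called 2959 higher and 311 lower, so the list counts are to be read against these.

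The genes most like STK11 over the 8 libraries, by Euclidean distance of centred log2(scaled RPKM + 1), were ZBTB22 (0.326), TSSK5P (0.457) and MAFK (0.492), where the median distance of a tested gene was 3.39. ZBTB22 had means of 0.664 and 0.351 RPKM in the inputs and 11.02 and 31.98 in the IPs of complete and glucose-free medium. For PRKAA1 the closest were DHODH (0.220), KCMF1 (0.235) and TBL3 (0.247), against a median of 1.78. PRKAA1 lay at scaled levels of 0.189 to 0.762, where the pseudocount of 1 understates its changes. Genes with little change therefore lie close to it, and this likeness shows little. EIF3D itself measured 36.5 and 50.3 RPKM in the complete inputs, 316.5 and 210.8 in the IPs of that medium, 34.3 and 35.0 in the glucose-free inputs, and 146.6 and 195.8 in the glucose-free IPs.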

How the data were processed

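Values of 8 libraries were deposited by the authors as RPKM in 2 tables, 1 per medium, with 58001 and 57982 rows that hold 3 and 4 repeated identifiers. The submitters' processing notes name cutadapt, HISAT2, SAMtools and GRCh38. Versions, read counter, annotation and strand: not given in the sources used here. Levels set across media compare tables that may have been normalized apart.

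With GENCODE 29 exon lengths, 97.5% to 98.0% of low values per library (up to 50 reads) gave whole reads within 0.02, and 98.4% of genes did so in all 8. PRKAG1 did not give whole reads at 4184 bases, its length in GENCODE 29, and the nearest length that did was 4556. The voom fits used its reads at 4184 bases, rounded. Depth was 8656921 to 43400905 recovered reads, and a floor of 3 reads is 0.0691 to 0.347 RPM. Reads are not independent molecules, so such floors cover counting error only.

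RPKM of each library was scaled so that its median over genes with a mean of at least 1 RPKM (10100) equalled the geometric mean of the 8 medians. limma 3.58.1 in R 4.3.3 fitted log2(scaled RPKM + 1) for 4 groups in 1 model with an intensity trend, and a gene passed when its p, adjusted by Benjamini-Hochberg over all tested genes, was under 0.05. Fold changes are on that log2 scale, which understates changes of low genes. The 4 comparisons set IP against input within each medium, these changes against each other (glucose-free minus complete), and glucose-free against complete input. Alternatives were centring after the log, no scaling, quantile normalization, a pseudocount of 0.1, no filter, only the libraries compared, length and GC trends removed with mgcv 1.9.3, voom on recovered reads, a replicate block and leaving out each library. Voom over the 16478 genes with at least 50 reads was added after the data were seen. The fit was tested on simulated data in which 200 genes changed, in the complete IP alone. In the libraries themselves most tested genes passed between IP and input. The simulation therefore cannot show whether scaling to a common median holds here. Sequences were read from GENCODE 29 transcripts.

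The members and lists were chosen with earlier results of these data known. All 10 members are named, with the 2 largest called changes per list and comparison (1 such gene is not reported here) and, for STK11 and PRKAA1, the 3 most alike genes.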

Additional observations from a re-analysis of the deposited data

How the results depend on the processing

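With 2 libraries per group, calls near the threshold moved with the setting. Members called in complete medium fell from 5 of 6 to 3 of 10 with no filter and to 3 of 6 with only the libraries compared, and ranged from 3 to 5 with 1 library left out. In glucose-free medium 4 became 6 on RPKM as deposited and with only the libraries compared, 3 with quantile normalization and 5 of 10 with no filter or with voom over genes with at least 50 reads, and ranged from 3 to 4 with 1 library left out. For the difference between media 0 became 1 after centring after the log, 3 on RPKM as deposited and 1 with quantile normalization, and ranged from 0 to 2 with 1 library left out. Between inputs 1 became 0 with centring after the log, RPKM as deposited or quantile normalization, 2 with a pseudocount of 0.1, with length and GC trends removed or with voom, and 3 with voom over genes with at least 50 reads; it ranged from 0 to 2 with 1 library left out.

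Signs turned as follows (log2). On RPKM as deposited, PRKAB1 was 0.63 in complete and 1.41 in glucose-free medium, PRKAG1 1.30 in glucose-free medium and STK11 −0.43 between inputs. After centring after the log, PRKAG2 was −0.10, −0.36 and −0.26 in complete medium, glucose-free medium and their difference, and the inputs gave 0.19 for PRKAG2, 0.018 for PRKAB1 and −0.021 for STK11. With quantile normalization PRKAG2 was −0.080 in the difference, and the inputs gave 0.021 for PRKAG2, 0.0070 for PRKAB1 and −0.019 for STK11. With trends removed PRKAG2 was −0.28 in complete medium, and the inputs gave 0.078 for PRKAG2, 0.28 for PRKAB1 and 0.11 for CAMKK2. PRKAB1 between inputs was 0.087 with either voom fit, and PRKAB2 in the difference was −0.15 with voom over genes with at least 50 reads. With 1 library left out, PRKAB1 ranged from −0.042 (without complete input 2) to 0.27 in the difference and from −0.17 to 0.14 between inputs, and STK11 from −0.033 (without complete input 2) to 0.043 between inputs. PRKAB1 between inputs was above 0 without complete input 2 or glucose-free input 1, and STK11 was below 0 without complete input 2 or glucose-free input 2.

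Over all genes, 508 passed for the difference, against 1491 centred after the log, 3270 on RPKM as deposited, 1563 with quantile normalization, 218 with a pseudocount of 0.1, 124 with no filter, 104 with voom, 81 with voom over genes with at least 50 reads and 71 to 2660 with 1 library left out. Between inputs 3437 passed, against 1275 centred, 1828 as deposited, 1761 with quantile normalization, and 1099 or 1041 without glucose-free input 1 or 2. The share of calls that were higher moved from 50.05% to 83.8% in complete and from 46.1% to 93.7% in glucose-free medium on RPKM as deposited. A lone library left in a group was assumed to vary like the others, and the cause of these changes was not tested. Same-numbered libraries deviated from their group means with correlations of −0.0965 to 0.135 between groups. Such values cannot decide whether the libraries were paired. With a replicate block 4, 4, 0 and 1 members were called, PRKAG2 in complete medium being lost (0.35, adjusted p = 0.0597), and 6011, 6004, 479 and 3344 genes. Only the libraries compared was not run for the difference, which uses all 8.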
